A study of Mus musculus with 8 samples.

Results

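The 10 genes described here carry ammonia nitrogen into urea and feed the cycle that makes it. They are Nags, Cps1, Otc, Ass1, Asl, Arg1, Slc25a15, Slc25a13, Gls2 and Glud1, chosen by name from the 19267 genes of a liver RNA-seq count table, and all 10 were abundant enough to be tested among 13993 genes. The livers came from male C57BL/6 mice aged 9 weeks that had been pair-fed a Lieber-DeCarli liquid diet for 21 days, which held alcohol at 5% w/v in the EtOH groups and maltose dextrin of equal calories in the Control groups. Elf4-/- mice lacked the transcription factor gene Elf4 in the intestinal epithelium only, through floxed Elf4 and Cre recombinase under the Vil1 promoter, and the WT mice were Cre mice as well. The deletion was thus not directed at the liver that was sequenced. Crossing genotype with diet gave 4 groups of 2 libraries each, called Control and EtOH within WT and within Elf4-/-.

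The urea cycle converts toxic ammonia to urea and runs in the hepatocytes around the portal vein, where blood from the gut enters the liver. Its opening steps are mitochondrial, its later steps cytosolic, and a pair of carriers link both compartments. Ammonia that escapes the periportal cells is taken up around the central vein, where glutamine synthetase, encoded by Glul, fixes it into glutamine. Glutaminase 2 of the periportal cells does the reverse and releases ammonia from glutamine next to the enzyme that consumes it.

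The promoters of 3 members that differed in their diet response are shown, taken from the members with a promoter sequence at hand. None was at hand for Cps1, Asl, Arg1 and Gls2, and Gls2 had the largest diet difference in WT. Otc fell on the alcohol diet in WT livers, Ass1 was lower without passing the test, and Nags showed no detectable change. Each sequence is the 250 bases before the start site in RefSeq on GRCm38.p6, written 5′ to 3′ along the gene's plus strand, with every CG dinucleotide in capitals. They lie at chrX:10252055-10252304 for Otc, chr2:31470020-31470269 for Ass1 and chr11:102145263-102145512 for Nags.
Otc: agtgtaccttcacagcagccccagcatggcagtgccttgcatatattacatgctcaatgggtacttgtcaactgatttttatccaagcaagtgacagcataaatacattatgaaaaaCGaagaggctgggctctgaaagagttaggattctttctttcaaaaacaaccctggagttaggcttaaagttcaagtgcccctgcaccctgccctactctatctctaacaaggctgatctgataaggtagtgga
Ass1: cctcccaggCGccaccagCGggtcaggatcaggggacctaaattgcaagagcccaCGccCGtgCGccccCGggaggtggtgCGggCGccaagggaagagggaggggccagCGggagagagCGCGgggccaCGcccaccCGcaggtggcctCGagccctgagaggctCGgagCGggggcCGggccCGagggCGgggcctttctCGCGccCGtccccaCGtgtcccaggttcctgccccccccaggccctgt
Nags: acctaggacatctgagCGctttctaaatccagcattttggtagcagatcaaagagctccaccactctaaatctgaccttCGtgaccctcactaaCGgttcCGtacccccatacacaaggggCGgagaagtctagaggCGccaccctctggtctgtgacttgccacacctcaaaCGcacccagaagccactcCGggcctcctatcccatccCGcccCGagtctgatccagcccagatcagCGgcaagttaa
The Otc window held 1 CG with a GC content of 43.6%, and 18.8% of 32851 mouse promoter windows of the same length had as few. The Ass1 window held 23 CG dinucleotides at 75.6% GC, a number that 13.3% of windows reached. The Nags window held 11, against a median of 6 over all windows. CG reads the same on both strands, so each was counted once. Windows were also at hand for Slc25a13 with 11, Glud1 with 46, and Slc25a15, which had 2 start sites with 11 and 43. These counts describe the sequence and were not tested against expression.

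Library totals ran from 6171051 to 9157362 counts, and libraries were scaled by the trimmed mean of M values (TMM) to CPM, counts relative to the library total. Genes of the mitochondrial genome took 33.7% and 23.4% of counts under Control but 12.5% and 10.8% under EtOH in WT livers, against 18.3% to 22.1% in the Elf4-/- libraries. The libraries were liver by their markers, with Alb, which encodes albumin, at 21676 to 42753 CPM in every library. WT EtOH replicate 2 gave the lowest level of the 8 libraries for 8 of the 10 members, all but Nags and Slc25a13, and values without it are given beside the members' comparisons. Replicates were labelled as separate samples, and with 2 per group the p-values measure the spread between these libraries. In bulk liver, fewer cells of a type and less RNA per cell cannot be told apart.

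The alcohol diet lowered part of this group in WT livers. Otc, Arg1 and Gls2 fell to between 0.259 and 0.360 of their Control level, Cps1 and Ass1 stood at 0.419 and 0.530 of it without passing the test over all genes, and Nags, Slc25a13 and Glud1 were within 1.12-fold of it. Of the 3 that fell, Gls2 alone passed when WT EtOH replicate 2 was left out. In Elf4-/- livers no member passed the test of the same diet. Of all genes tested, 1.71% were called higher and 1.18% lower there, against 10.8% in each direction in WT livers. Summed over the 10 genes, expression was 5086 and 6766 CPM under Control and 3626 and 2325 under EtOH in WT livers, against 5782 and 7609 under Control and 6636 and 5314 under EtOH in Elf4-/- livers. Both WT EtOH sums were below all 6 others.

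**Figure D1:**
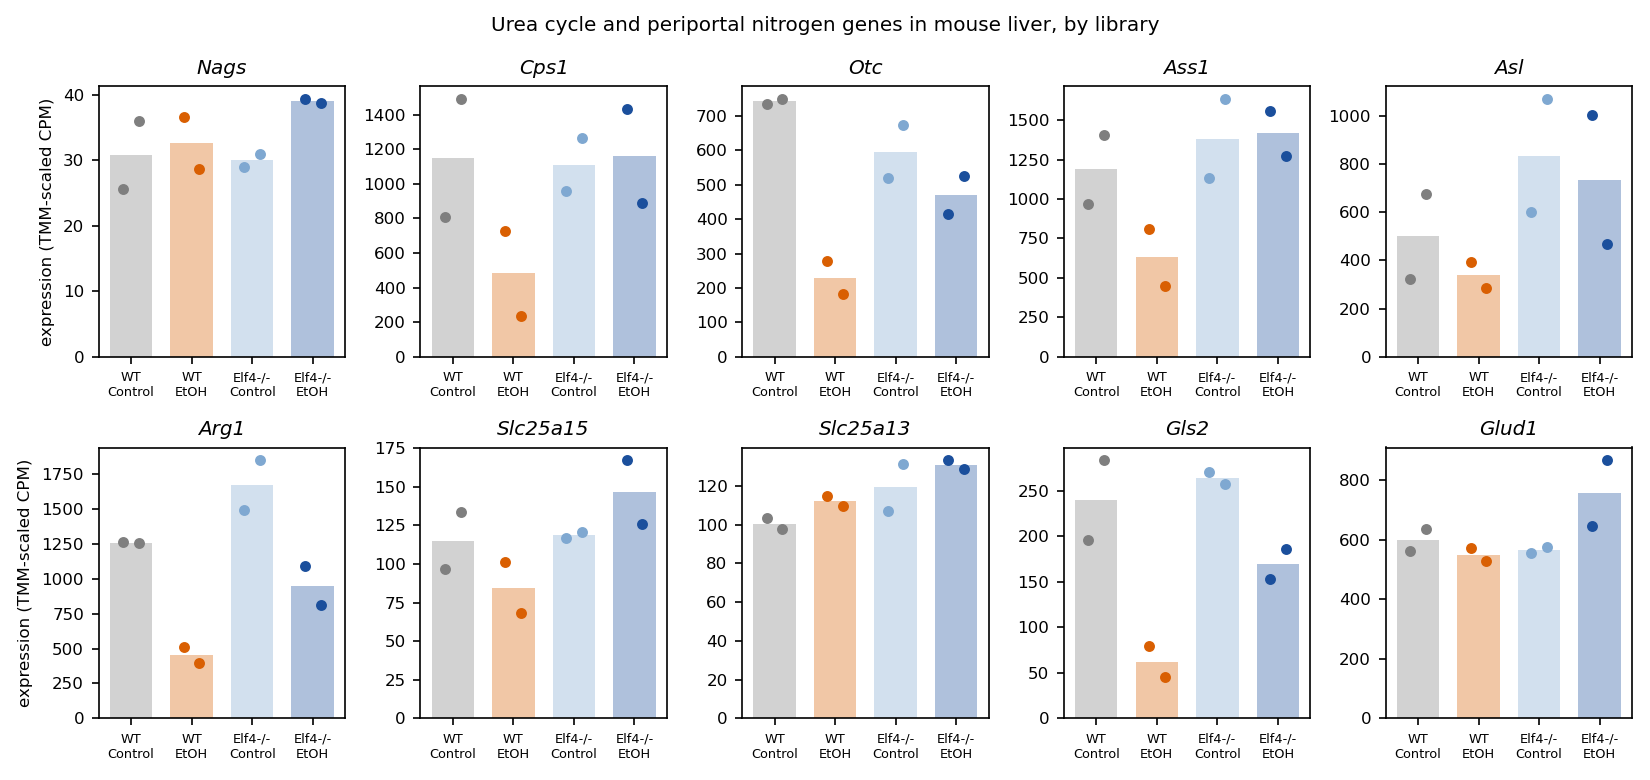
Expression of each of the 10 genes in TMM-scaled CPM (vertical axes start at 0) in the 4 groups. Points are the 2 libraries of a group and bars their mean. For Cps1, Otc, Ass1, Arg1 and Gls2 both WT EtOH points lie below all others. The Nags points of WT Control and WT EtOH overlap.

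The mitochondrial entry of the cycle comprises Nags, Cps1 and Otc. Nags (chromosome 11, 102145513 to 102149477, plus strand, GRCm38) encodes N-acetylglutamate synthase, which makes the obligate activator of carbamoyl phosphate synthetase. Its levels were low, 25.5 and 36.1 CPM under Control and 36.5 and 28.7 under EtOH in WT livers, against 29.0 and 31.0 under Control and 39.4 and 38.7 under EtOH in Elf4-/- livers. The WT groups overlapped, and the diet difference in WT was 0.08 ± 0.22 on the log2 scale (SE), with a Benjamini-Hochberg adjusted p of 0.816 by edgeR's quasi-likelihood test. Nags shares 443 exonic bases with Gm11586 on the opposite strand, a gene with 12 to 44 counts per library, and whether counting used strand is not given in the sources used here.

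Cps1 (chromosome 1, 67123026 to 67231259, plus strand) encodes carbamoyl phosphate synthetase 1, the entry enzyme of the cycle. It read 811 and 1491 CPM under Control and 727 and 238 under EtOH in WT livers, against 957 and 1267 under Control and 1435 and 888 under EtOH in Elf4-/- livers. The WT EtOH libraries lay below both WT Control libraries, yet they differed from each other by 3.06-fold. The log2 difference in WT of −1.25 ± 0.50 (SE) missed the threshold in edgeR (adjusted p = 0.100) and passed it in DESeq2 (adjusted p = 0.0181). Without WT EtOH replicate 1 it was −2.27 and passed in edgeR (adjusted p = 0.0333), and without replicate 2 it was −0.67. In Elf4-/- livers the groups overlapped and the difference was 0.06 ± 0.49 (SE, edgeR adjusted p = 0.957).

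Otc (chromosome X, 10252305 to 10321024, plus strand) encodes ornithine transcarbamylase, which joins carbamoyl phosphate to ornithine. Its WT Control libraries were close, at 736 and 750 CPM, and its WT EtOH libraries were at 279 and 182. The fall was 3.23-fold, or −1.69 ± 0.28 (SE) in log2 units, and passed in edgeR with an adjusted p of 0.00445. Without WT EtOH replicate 2 it was −1.42 and just missed the threshold (edgeR adjusted p = 0.0536). Elf4-/- livers had 520 and 673 CPM under Control and 414 and 526 under EtOH, groups that overlapped, with a log2 difference of −0.34 ± 0.27 (SE, edgeR adjusted p = 0.504). In the same libraries, the ratio of Otc counts to Nags counts, which needs no scaling between libraries and was chosen after the values were seen, was 28.8 and 20.8 under Control and 7.64 and 6.32 under EtOH in WT livers, against 17.9 and 21.7 under Control and 10.5 and 13.6 under EtOH in Elf4-/- livers. By this ratio the groups of each genotype did not overlap. In Elf4-/- livers Nags itself read higher under EtOH without overlap (log2 difference 0.38, edgeR adjusted p = 0.339). The ratio there thus holds the differences of both genes and does not show a fall of Otc alone.

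The cytosolic enzymes are encoded by Ass1, Asl and Arg1. Ass1 (chromosome 2, 31470207 to 31520672, plus strand), argininosuccinate synthase, brings in the nitrogen of aspartate. It read 969 and 1407 CPM under Control and 812 and 447 under EtOH in WT livers, against 1131 and 1634 under Control and 1555 and 1275 under EtOH in Elf4-/- livers. WT EtOH lay below WT Control without overlap, but the log2 difference of −0.92 ± 0.35 (SE) did not pass in edgeR (adjusted p = 0.0887), whereas DESeq2 gave an adjusted p of 0.0247. It was −0.55 when WT EtOH replicate 2 was left out. In Elf4-/- livers it was 0.03 ± 0.35 (SE, edgeR adjusted p = 0.967).

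Asl (chromosome 5, 130011258 to 130029247, minus strand), argininosuccinate lyase, was the member with the widest relative spread between replicates under Control diet, 2.08-fold in WT and 1.78-fold in Elf4-/- livers. It read 325 and 674 CPM under Control and 393 and 284 under EtOH in WT livers, against 600 and 1070 under Control and 1001 and 467 under EtOH in Elf4-/- livers. Diet groups overlapped in both genotypes, with log2 differences of −0.56 ± 0.45 in WT and −0.19 ± 0.45 in Elf4-/- (SE, edgeR adjusted p = 0.402 and 0.848).

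Arg1 (chromosome 10, 24915221 to 24927484, minus strand), arginase 1, splits arginine to urea and ornithine. WT Control libraries were at 1261 and 1256 CPM, and WT EtOH libraries at 511 and 395. This was a 2.78-fold fall, or −1.47 ± 0.27 (SE) in log2 units, and passed in edgeR with an adjusted p of 0.00661. Leaving out WT EtOH replicate 2 gave −1.31, which missed the threshold (edgeR adjusted p = 0.0755). In Elf4-/- livers the levels were 1497 and 1849 CPM under Control and 1091 and 813 under EtOH, again without overlap. The log2 difference there was −0.81 ± 0.27 (SE), which missed the threshold in edgeR (adjusted p = 0.124) and passed it in DESeq2 (adjusted p = 0.0303). The ratio of Arg1 to Nags counts was 49.4 and 34.8 under Control against 14.0 and 13.7 under EtOH in WT livers, and in Elf4-/- livers 51.6 and 59.6 against 27.7 and 21.0, with no overlap of the diets in either genotype.

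Neither carrier passed the test of the diet in either genotype. Slc25a15 (chromosome 8, 22375551 to 22398597, minus strand), the mitochondrial ornithine carrier, read 96.8 and 133 CPM under Control and 101 and 68.0 under EtOH in WT livers, against 117 and 120 under Control and 167 and 126 under EtOH in Elf4-/- livers. Its log2 differences with diet were −0.45 ± 0.26 in WT and 0.30 ± 0.26 in Elf4-/- (SE, edgeR adjusted p = 0.244 and 0.536). Slc25a13 (chromosome 6, 6041218 to 6217173, minus strand), citrin, exports mitochondrial aspartate for the Ass1 step. It had in relative terms the narrowest range of all members, 97.7 to 133 CPM over the 8 libraries, with a diet difference in WT of 0.16 ± 0.19 on the log2 scale (SE, edgeR adjusted p = 0.583). Under scaling by library totals alone, which shifts the median of all genes in this contrast by 0.43, Slc25a13 read 0.59 and passed as higher (edgeR adjusted p = 0.0416).

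Gls2 and Glud1 supply nitrogen to the cycle from glutamine and glutamate. Gls2 (chromosome 10, 128194457 to 128210004, plus strand), glutaminase 2, had the largest diet difference of the 10 genes in WT. There it read 196 and 283 CPM under Control and 79.3 and 44.9 under EtOH, a 3.86-fold fall, or −1.95 ± 0.30 (SE) in log2 units, and passed in edgeR with an adjusted p of 0.00359. This call held with each library left out in turn, where the value ran from −2.41 to −1.60 and the largest adjusted p was 0.0391 (edgeR). In Elf4-/- livers Gls2 was at 270 and 257 CPM under Control and 153 and 185 under EtOH, a lower level without overlap that did not pass (log2 difference −0.64 ± 0.29, SE, edgeR adjusted p = 0.246). Gls2 shares 97 exonic bases with Spryd4 on the opposite strand, which had 94 to 199 counts per library. Glud1 (chromosome 14, 34310727 to 34345265, plus strand), mitochondrial glutamate dehydrogenase, read 562 and 637 CPM under Control and 571 and 529 under EtOH in WT livers, against 554 and 577 under Control and 647 and 866 under EtOH in Elf4-/- livers. Its log2 differences with diet were −0.12 ± 0.24 in WT and 0.42 ± 0.24 in Elf4-/- (SE, edgeR adjusted p = 0.740 and 0.336).

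In all, 3 of 10 members were called lower and 0 higher in WT EtOH against WT Control, where 10.8% of all genes tested were called lower and 10.8% higher. DESeq2 called 5 lower, adding Cps1 and Ass1, where it called 10.1% of genes lower. Without WT EtOH replicate 2 edgeR called 1 member lower, Gls2, where it called 1.73% of genes lower, and without replicate 1 it called 4 lower, where it called 2.88%. Of the members not called in WT, Asl read −0.35, Slc25a15 −0.19, Glud1 −0.08 and Nags 0.24 on the log2 scale without WT EtOH replicate 2. Without overlap of the libraries 5 members were lower and 1, Slc25a13, higher, against 32.7% and 34.1% of all genes. The members' median log2 fold change was −0.74 against 0.01 over all genes tested. Under scaling by library totals alone the members' median was −0.32, below the shifted median of all genes, 0.44. In Elf4-/- EtOH against Elf4-/- Control, edgeR called 0 of 10, where it called 1.71% of all genes higher and 1.18% lower. At an unadjusted p under 0.05 edgeR had Arg1 lower, with 10.3% of genes, and DESeq2 called Arg1 lower, with 2.57% of genes. Arg1 and Gls2 were lower and Nags, Slc25a15 and Glud1 higher without overlap of the libraries, which 26.3% and 25.8% of genes were. The members' median there was 0.05 against 0.01.

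**Figure D2:**
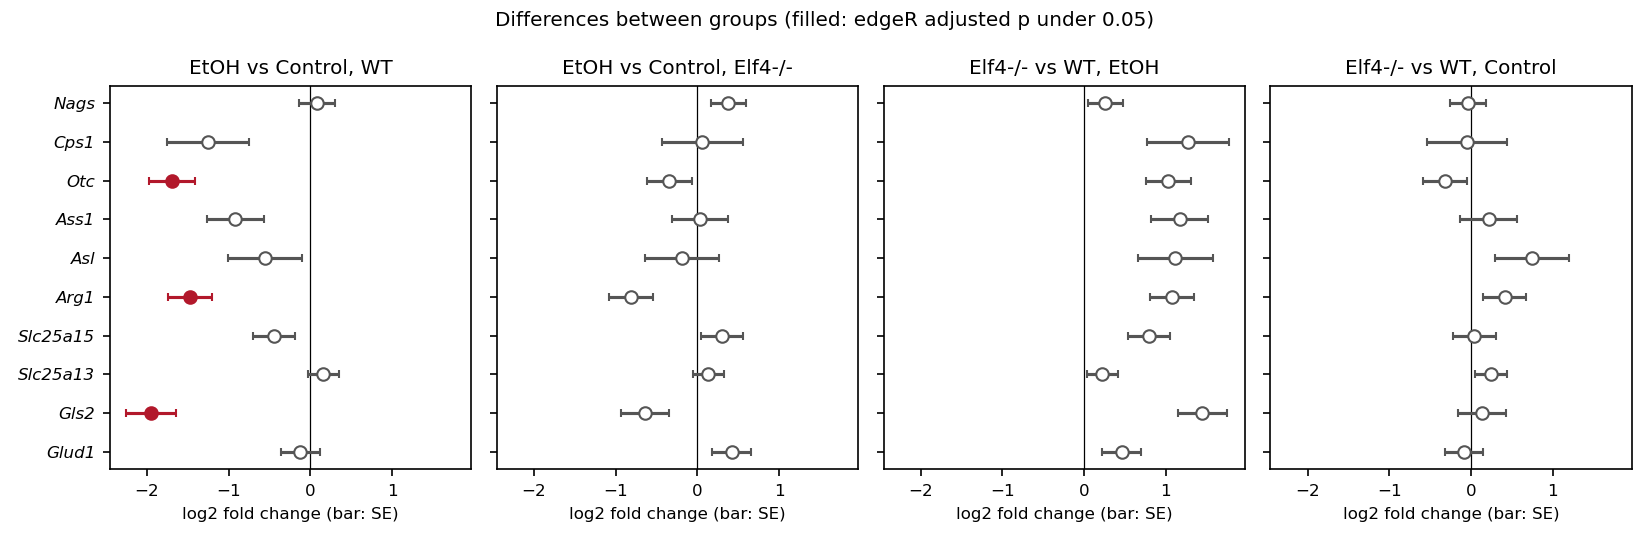
Log2 fold change of each gene in 4 comparisons, with bars for the SE and filled points for an edgeR adjusted p under 0.05. Only Otc, Arg1 and Gls2 under EtOH in WT are filled, and in the comparison of genotypes under EtOH all 10 points lie above 0, from 0.22 to 1.45.

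Under the alcohol diet every member read higher in Elf4-/- than in WT livers, without overlap of the libraries, but no difference passed the test over all genes. A log2 difference above 0 was seen for 50.1% of all genes tested, and non-overlap in this direction for 20%. The largest log2 differences were those of Gls2, 1.45 ± 0.30 (SE, edgeR adjusted p = 0.137), Cps1, 1.27 ± 0.50, Ass1, 1.17 ± 0.35, and Asl, 1.12 ± 0.46, followed by Arg1 at 1.07 ± 0.27, Otc at 1.03 ± 0.28 and Slc25a15 at 0.79 ± 0.26. Glud1, Nags and Slc25a13 read 0.46, 0.26 and 0.22. The median was 1.05, and that of all genes tested 0.00. At an unadjusted p under 0.05, 7 of 10 members were higher, where 6.18% of genes were, and 0 lower, where 4.32% were. At an adjusted p under 0.05 edgeR called 0 members, where it called 0.121% of genes higher and 0.0214% lower. DESeq2 called 4, Otc, Ass1, Arg1 and Gls2, with adjusted p of 0.0200, 0.0246, 0.00533 and 0.000633, where it called 1.06% of genes higher. Gls2 passed in edgeR without Elf4-/- EtOH replicate 1 (adjusted p = 0.0433), where 0.768% of genes were called higher, and Arg1 without replicate 2 (adjusted p = 0.0345), where 1.84% were. The difference of Asl was 0.47 without the former library and 1.56 without the latter. Without WT EtOH replicate 2 the differences ran from 0.09 for Nags to 1.09 for Gls2, with 0.67 for Cps1 and 0.80 for Ass1, and without WT EtOH replicate 1 that of Cps1 was 2.28.

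This comparison shares the WT EtOH libraries with the diet comparison in WT, so the lower levels of that group enter both. Under Control diet the genotypes differed by −0.32 (Otc) to 0.74 (Asl) on the log2 scale, with a median of 0.09. edgeR called 0 of the 10 there and DESeq2 0, where edgeR called 0.00715% of genes in each direction and DESeq2 0.322% higher and 0.243% lower. No member reached an unadjusted p under 0.05 in edgeR, against 4.37% of genes higher and 2.94% lower. The difference between the diet responses of the genotypes was tested as an interaction. Otc responded less negatively in Elf4-/- livers by 1.35 ± 0.39 on the log2 scale (SE, unadjusted p = 0.00609, adjusted p = 0.314 in edgeR, adjusted p = 0.0423 in DESeq2) and Gls2 by 1.31 ± 0.42 (SE, unadjusted p = 0.0104, adjusted p = 0.346 in edgeR, adjusted p = 0.115 in DESeq2). The other interactions ran from −0.02 for Slc25a13 to 1.32 for Cps1. Without WT EtOH replicate 2 the 10 ran from −0.06 for Slc25a13 to 1.06 for Otc, with 0.95 for Gls2 and 0.72 for Cps1, and without replicate 1 that of Cps1 was 2.32. edgeR called 0 genes of the whole table in this test, 0% in either direction, 691 higher and 720 lower at an unadjusted p under 0.05, and DESeq2 called 83 higher and 28 lower, or 0.593% and 0.2% of genes. By edgeR the diet responses of the genotypes were not shown to differ for any member. The unadjusted calls were 4.94% of genes higher and 5.15% lower, with 2 members among the higher.

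Levels per kilobase of exon, which allow genes to be compared, placed Arg1 and Ass1 at the top and Nags at the bottom in every group. In WT Control the means were 565 ± 1.48 CPM per kb for Arg1, 492 ± 128 for Ass1, 207 ± 86.6 for Cps1, 175 ± 2.28 for Otc, 142 ± 12.6 for Glud1, 103 ± 51.1 for Asl, 69.0 ± 17.7 for Gls2, 26.5 ± 1.08 for Slc25a13, 20.4 ± 4.60 for Slc25a15 and 10.9 ± 2.62 for Nags (SD, n = 2). Among neighbours in this order, Arg1 and Ass1, Cps1 and Otc, Glud1 and Asl, and Asl and Gls2 overlapped between libraries. In WT EtOH the order changed, with Ass1 at 261 ± 107 and Arg1 at 203 ± 36.8, which overlapped. Glud1 at 131 ± 7.15 came next, above Cps1 at 86.9 ± 62.3, and these also overlapped. Gls2 at 17.9 ± 6.99 was below Slc25a13 at 29.6 ± 0.965 CPM per kb without overlap. In Elf4-/- EtOH, Ass1 at 586 ± 82.0 was above Arg1 at 427 ± 88.3 without overlap.

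Glul moved the other way from Gls2. This gene, which encodes glutamine synthetase, read 603 and 621 CPM under Control and 2130 and 1956 under EtOH in WT livers, against 730 and 767 under Control and 2614 and 1848 under EtOH in Elf4-/- livers. It rose 3.34-fold in WT and 2.98-fold in Elf4-/- (edgeR adjusted p = 0.00354 and 0.0223). The call in Elf4-/- was lost in a fit of the 4 Elf4-/- libraries alone (edgeR adjusted p = 0.106) and without either Control library (0.174 and 0.203). Counts of Gls2 per count of Glul, a ratio within each library chosen after the values were seen, were 0.325 and 0.456 under Control and 0.0372 and 0.0230 under EtOH in WT livers, against 0.370 and 0.335 under Control and 0.0585 and 0.100 under EtOH in Elf4-/- livers. The Control and EtOH libraries did not overlap in either genotype, and both Elf4-/- EtOH ratios were above both WT EtOH ratios.

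**Figure D3:**
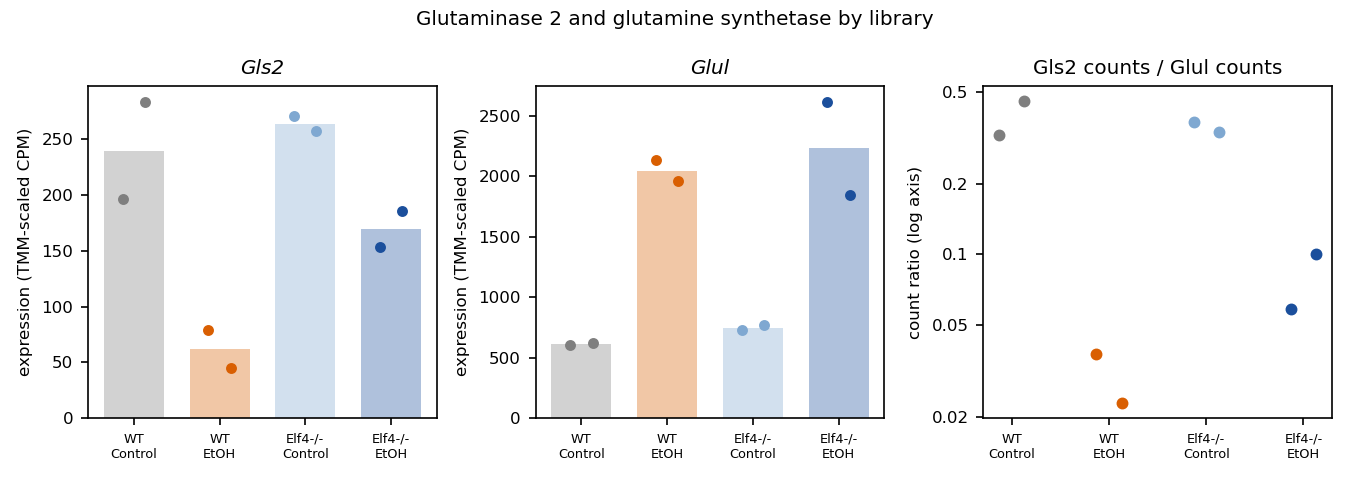
Gls2 and Glul in TMM-scaled CPM (linear axes from 0, bars are means of the 2 libraries shown as points) and the ratio of their counts within each library (log axis). The ratio lies between 0.325 and 0.456 in the 4 Control libraries and between 0.0230 and 0.100 in the 4 EtOH libraries.

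Of 25 further genes of ammonia, glutamine and glutamate handling, 23 were tested. In WT 3 were higher and 4 lower under EtOH, where 10.8% of all genes tested were called in each direction, and the median was −0.01. In Elf4-/- 2 were higher and 0 lower, where 1.71% and 1.18% of all genes were, and the median was 0.21. Oat, ornithine aminotransferase, which drains ornithine from the cycle, was at 417 and 430 CPM under Control and 1070 and 747 under EtOH in WT livers, against 494 and 567 under Control and 3490 and 1830 under EtOH in Elf4-/- livers. It rose 2.15-fold in WT and 5.01-fold in Elf4-/- (edgeR adjusted p = 0.0425 and 0.0162), but the call in WT was lost without any 1 of the WT or Elf4-/- Control libraries (edgeR adjusted p = 0.0722 to 0.236), and that in Elf4-/- without either Elf4-/- Control library (0.143 and 0.177) and in a fit of the 4 Elf4-/- libraries alone (0.0853). Slc1a2, a glutamate transporter, rose in WT by 1.43 ± 0.34 on the log2 scale (SE, edgeR adjusted p = 0.0167). It lost the call without any 1 of the WT libraries, where the value stayed within 1.42 to 1.44. In Elf4-/- livers Slc1a2 rose by 1.34 ± 0.34 (SE), which missed the threshold in edgeR (adjusted p = 0.0624) and passed it in DESeq2 (adjusted p = 0.00225). The genes that fell in WT were Slc38a3, a glutamine transporter, by 2.07 ± 0.26 on the log2 scale, Gpt, alanine aminotransferase, by 1.21 ± 0.25, and Car5a, a mitochondrial carbonic anhydrase that provides bicarbonate to the Cps1 step, by 0.93 ± 0.20 (SE, edgeR adjusted p = 0.00196, 0.0102 and 0.0121). The fourth was the amino acid transporter Slc38a4, named after its value was seen, which fell by 0.91 ± 0.26 on the log2 scale (SE, edgeR adjusted p = 0.0330). It also passed in DESeq2 (adjusted p = 0.00374). No other alternative setting was run for Slc38a4, so its dependence on single libraries is not known. Gpt and Car5a no longer passed without WT EtOH replicate 2, nor without replicate 1. Car5a also missed the threshold without WT Control replicate 2 and under scaling by library totals alone (edgeR adjusted p = 0.102). In Elf4-/- livers Slc38a3 fell by 0.80 ± 0.26 on the log2 scale (SE), which missed the threshold in edgeR (adjusted p = 0.113) and passed it in DESeq2 (adjusted p = 0.0192). Gpt, Car5a and Slc38a4 read −0.29, −0.11 and −0.54 there and passed in neither.

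The paralogs Arg2 and Slc25a12 of the members Arg1 and Slc25a13, which were far less abundant here, did not pass in either diet comparison. Arg2, mitochondrial arginase, ran from 0.799 to 2.66 CPM over the 8 libraries, and Slc25a12, the aspartate-glutamate carrier aralar, from 6.62 to 12.3. Rhbg, an ammonia transporter of pericentral hepatocytes, had 0 and 4 counts under Control and 18 and 6 under EtOH in WT livers, against 6 and 0 under Control and 27 and 9 under EtOH in Elf4-/- livers, so a difference was not detectable at this depth in edgeR (adjusted p = 0.337 in WT and 0.200 in Elf4-/-).

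Markers of the liver zones gave the setting of these changes. Of all genes tested, edgeR called 10.8% lower and 10.8% higher under EtOH in WT livers. In Elf4-/- livers it called 1.18% lower and 1.71% higher, and 10.3% were lower at an unadjusted p under 0.05. Of 16 periportal markers, 9 were lower and 2 higher in WT EtOH against WT Control, where the list's median log2 value was −1.23, and 0 passed in Elf4-/-, where 2 were lower at an unadjusted p under 0.05 and the median was −0.42. Apof, an apolipoprotein, fell by 1.21 ± 0.24 and Cdh1, which encodes E-cadherin, by 2.70 ± 0.53 on the log2 scale, whereas the gluconeogenic gene Fbp1 and the lipid transporter gene Mfsd2a rose by 2.19 ± 0.36 and 1.78 ± 0.31 (SE, edgeR adjusted p = 0.00820, 0.00855, 0.00415 and 0.00501). Apof and Cdh1 missed the threshold without WT EtOH replicate 2 (edgeR adjusted p = 0.0909 and 0.0760), as did Cdh1 without replicate 1 (0.0584). In Elf4-/- livers Cdh1 fell by 1.63 ± 0.50 on the log2 scale (SE). This missed the threshold in edgeR (adjusted p = 0.101) and passed it in DESeq2 (adjusted p = 0.0132). Apof, Fbp1 and Mfsd2a passed in neither there. Of 16 pericentral markers, which include Glul, Oat, Rhbg and Slc1a2, 7 were higher and 1 lower in WT. In Elf4-/- 6 were higher and 0 lower, and the medians were 0.84 in WT and 1.16 in Elf4-/-. Gstm3, a glutathione transferase, rose by 5.73 ± 1.01 in WT (SE, edgeR adjusted p = 0.00535), missing the threshold without WT Control replicate 1 (0.0504). The lower pericentral marker was Lgr5, at −1.26 ± 0.35 (SE, edgeR adjusted p = 0.0300), named after its value was seen. It also passed in DESeq2 (adjusted p = 0.0185). No other alternative setting was run for Lgr5, so its dependence on single libraries is not known.

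Markers of other liver cells moved with the diet in the same WT libraries. For the diet edgeR called 10.8% of all genes higher and 10.8% lower in WT, and 1.71% and 1.18% in Elf4-/-. All 7 Kupffer cell markers were called higher in WT EtOH, with a summed level of 181 to 246 CPM under Control and 565 to 629 under EtOH. All 7 endothelial markers were higher, from 50.8 to 99.0 up to 286 to 341 CPM, and 4 of 7 stellate cell markers, from 30.9 to 71.2 up to 238 to 310 CPM. The genes with the smallest adjusted p in each list had log2 rises of 4.65 for Marco, 2.14 for Vsig4, 2.08 for Cd5l and 1.02 for Clec4f among Kupffer markers, 2.72 for Kdr, 2.60 for Clec4g, 2.56 for Ptprb and 1.77 for Pecam1 in endothelium, and 3.06 for Dcn, 2.68 for Lrat, 1.54 for Reln and 1.53 for Hand2 in stellate cells. Of these, Clec4f, Pecam1, Reln and Hand2 did not pass without WT EtOH replicate 2 (edgeR adjusted p = 0.0659, 0.0575, 0.144 and 0.191), Reln and Hand2 without WT Control replicate 2 (0.0947 and 0.146), and Hand2 without WT EtOH replicate 1 (0.0950) or either Elf4-/- Control library (0.0558 and 0.0543). In Elf4-/- livers 1, 0 and 0 of these lists' genes passed, the 1 being Marco at 2.81 (edgeR adjusted p = 0.0276, and 0.123, 0.228 and 0.0606 without Elf4-/- Control replicate 1 or 2 or EtOH replicate 1, or 0.0853 in a fit of the 4 Elf4-/- libraries), and the sums were 168 to 176 and 229 to 232 CPM for Kupffer cells, 152 to 155 and 161 to 250 for endothelium, and 88.0 to 124 and 194 to 321 for stellate cells, Control before EtOH. None of these markers was at 0 in any group. In Elf4-/- livers the stellate markers Dcn and Lrat rose by 1.73 ± 0.43 and 1.52 ± 0.40 on the log2 scale (SE). They missed the threshold in edgeR (adjusted p = 0.0607 and 0.0717) and passed it in DESeq2 (adjusted p = 0.000835 and 0.0131). Between the genotypes under EtOH, edgeR called 0.121% of all genes higher and 0.0214% lower in Elf4-/-. Of 7 Kupffer cell markers 0 were higher and 2 lower in Elf4-/-. These were Cd5l at −1.69 (edgeR adjusted p = 0.0268) and Clec4f, named after its value was seen, at −1.32 (0.0418). Apart from DESeq2, the Clec4f difference was not checked under the alternative settings, so its dependence on single libraries is not known. Cd5l missed the threshold without any 1 WT EtOH or Elf4-/- Control library (0.0550 to 0.321) and in a fit of the 4 EtOH libraries (0.173). Of 7 hepatocyte markers tested, Apoa1 fell in WT by 2.34 ± 0.43 on the log2 scale (SE, edgeR adjusted p = 0.00592). Without WT EtOH replicate 2 it read −1.95 and missed the threshold. In Elf4-/- Apoa1 fell by 1.35 ± 0.41 (SE), which missed the threshold in edgeR (adjusted p = 0.101) and passed it in DESeq2 (adjusted p = 0.00165). No other hepatocyte marker passed in edgeR. In WT the others read −0.84 for Fgb (DESeq2 adjusted p = 0.0384), −0.62 for Alb, −0.48 for Hnf4a, −0.13 for Ttr, −0.11 for Apob and 0.09 for Apoa2. The median of the 7 markers was −0.48. Their sum was 62065 to 83534 CPM under Control and 41814 to 48556 under EtOH in WT livers, against 72100 to 80334 under Control and 47450 to 63219 under EtOH in Elf4-/- livers. The part of cell composition and of the mitochondrial share of counts in the members' differences was not tested.

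**Figure D4:**
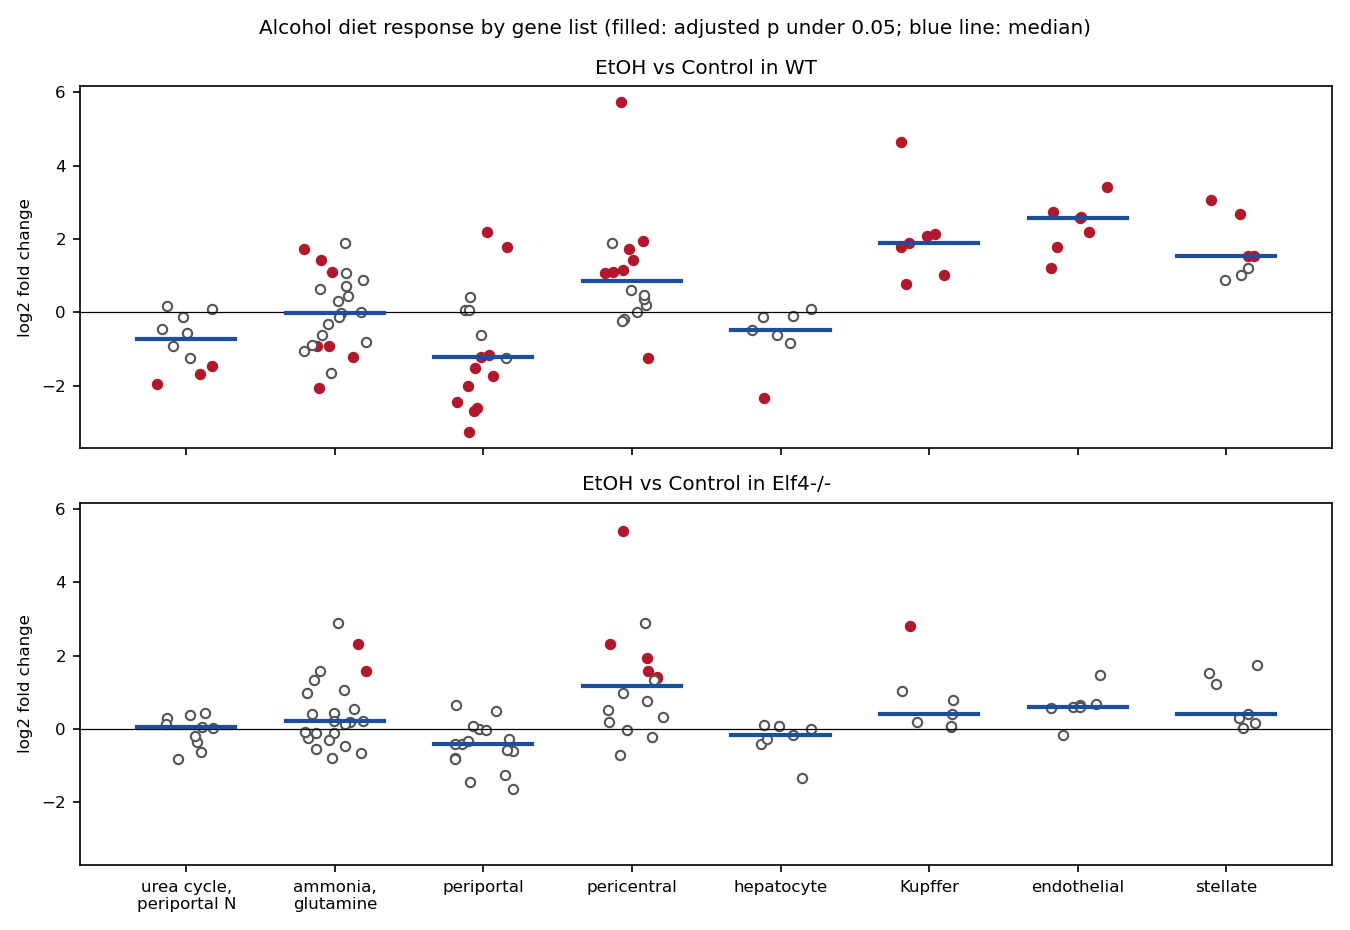
Log2 fold change of EtOH against Control for each tested gene of 8 lists, in WT (upper panel) and Elf4-/- (lower panel) livers. Filled points passed an edgeR adjusted p under 0.05 and blue lines are medians; the urea cycle and periportal nitrogen genes (left) have a median of −0.74 in WT and 0.05 in Elf4-/-, and the pericentral markers 0.84 and 1.16.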

How the data were processed

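Liver RNA was extracted with Trizol by the authors, who sequenced it as paired ends, mapped the reads to mm10 with HISAT2, sorted them with SAMtools, counted them per gene with HTSeq and used DESeq2. Versions, annotation and strand setting are not given in the sources used here, so reads of overlapping genes may have been lost or shared. The values deposited by the authors are raw whole-number counts per gene symbol, 1 column per library, and columns of no sample numbered 0. Coordinates and exon lengths came from GENCODE on GRCm38, which is mm10, and promoters from RefSeq.

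All 8 libraries entered 1 model of 4 groups in edgeR 4.0.16 (R 4.3.3), after filterByExpr by group (minimum count 10, 13993 genes kept, 99.76% to 99.85% of counts per library) and TMM scaling. The quasi-likelihood test was run for 5 contrasts, with p-values adjusted over the 13993 genes by Benjamini-Hochberg and called under 0.05. The script was tested on simulated data. DESeq2 1.42.0, size factors by median of ratios, library totals alone, no filter, only the libraries compared, a replicate block and leaving out each library were alternatives.

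The members and gene lists were chosen with earlier results of these data known. All members are named. From each list the up to 4 genes with the smallest adjusted p in the WT diet comparison and up to 2 from the other contrasts are named where past the threshold, with Glul, Oat, Rhbg, Arg2 and Slc25a12 always. Some genes that this rule names are not reported here. Lists cover ammonia and glutamine handling, liver zones and regulators of the cycle. Others hold markers of hepatocytes and of bile duct, Kupffer, endothelial, stellate, intestinal and red blood cells. Likeness of pattern is Pearson's r over the 8 libraries with the members' mean centred log2 CPM (prior count 2), among genes averaging 50 counts or more. Depth was 6171051 to 9157362 counts per library.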

Additional observations from a re-analysis of the deposited data

How the results depend on the processing

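Limits came first from sample number, since every group had 2 libraries and WT EtOH replicate 2 decided several values. DESeq2 called 5 members for the diet in WT, 1 for the diet in Elf4-/-, 4 for genotype under EtOH and 1 for the interaction, where edgeR called 3, 0, 0 and 0, and the cause was not tested. With 1 library left out at a time, the member count ran from 1 to 4 for the diet in WT, where 4.28% to 27.3% of all genes were called, and from 0 to 1 for genotype under EtOH, where 0% to 2.48% were, and was 0 in the other contrasts. No other planned setting moved a member count by over 1.5 times. Scaling by library totals alone shifted the median of all genes by 0.43 in diet in WT, −0.23 and 0.23 in genotype under EtOH and under Control, and −0.46 in the interaction, and called 3422 genes higher and 634 lower for the diet in WT against 1518 and 1507. It turned the sign of small differences, none of which had passed, namely Glud1 (0.30) and Slc25a12 (0.41) in diet in WT, Slc25a13 (−0.011) in genotype under EtOH, Cps1 (0.16), Nags (0.19) and Glud1 (0.14) in genotype under Control, and Asl (−0.069) and Nags (−0.16) in the interaction. Slc25a12 in diet in WT also read 0.016 without the filter.

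Leaving out a library turned the sign of further differences that had not passed. Their ranges were −0.996 to 0.061 for Asl, −0.15 to 0.35 for Nags and −0.30 to 0.23 for Slc25a12 in diet in WT; −0.37 to 0.97 for Arg2, −0.84 to 0.29 for Asl, −0.21 to 0.32 for Ass1, −0.32 to 0.35 for Cps1, −0.069 to 0.51 for Slc25a12 and −0.0074 to 0.29 for Slc25a13 in diet in Elf4-/-; −0.066 to 0.52 for Ass1, −0.42 to 0.46 for Cps1, −0.10 to 0.44 for Gls2, −0.17 to 0.016 for Glud1, −0.26 to 0.24 for Nags and −0.17 to 0.30 for Slc25a15 in genotype under Control; and −0.28 to 0.85 for Asl and −0.16 to 0.13 for Slc25a13 in the interaction. In such fits the lone library of a group is assumed to vary like the other groups. A replicate block gave 3, 0, 0, 0 and 0 member calls, as without it. It changed no call of the members or of the genes named by the stated rule. Slc38a4, Lgr5, Agxt and the genotype difference of Clec4f under EtOH fall outside that rule. They were not checked with the block, under other scaling, without the filter or with a library left out. The deviations of same-numbered libraries correlated at −0.134 to 0.114 over 9398 genes, so the numbers were not taken to pair the samples. Over all genes the block called 2639 for the diet in WT and 10 for genotype under EtOH.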

Other observations

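Of 14 regulators of urea cycle transcription and enzyme activity, edgeR called 2 lower and 0 higher in WT EtOH against WT Control. Of all genes tested it called 10.8% lower and 10.8% higher there. In Elf4-/- 0 regulators passed in edgeR, and 3 were lower at an unadjusted p under 0.05, where 10.3% of all genes were. Klf15, a transcription factor of amino acid catabolism, had WT levels of 180 and 240 CPM under Control and 86.6 and 71.2 under EtOH, a difference of −1.41 ± 0.28 (SE) in log2 units with an edgeR adjusted p of 0.00863, or 0.0842 when WT EtOH replicate 2 was left out. Ppargc1a, a coactivator of fasting metabolism, had WT levels of 11.8 and 12.7 CPM under Control and 6.32 and 3.46 under EtOH, a difference of −1.33 ± 0.37 (SE) in log2 units with an edgeR adjusted p of 0.0304, or 0.207 when that library was left out, 0.0893 and 0.105 without WT Control replicate 1 or 2, and 0.0895 under scaling by library totals alone. In Elf4-/- livers Klf15 read −0.96 ± 0.28 (SE) in log2 units. This missed the threshold in edgeR (adjusted p = 0.0881) and passed it in DESeq2 (adjusted p = 0.0230). Ppargc1a read −0.08 there and passed in neither. The median of the 14 was −0.48 in WT and −0.28 in Elf4-/-. Of the remaining marker lists, 2 of 5 red blood cell markers, Alas2 and Hba-a2, were lower in WT EtOH. In Elf4-/- livers 0 passed in edgeR. Alas2 fell there by 1.41 ± 0.48 on the log2 scale (SE, edgeR adjusted p = 0.130) and passed in DESeq2 (adjusted p = 0.0284). Alas2 and Hba-a2 lost the call without any 1 WT library (edgeR adjusted p = 0.0749 to 0.233). Of the intestinal epithelium markers, 0 of 3 tested passed in any contrast (1 lower at an unadjusted p under 0.05 in diet in WT).

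The genes whose pattern over the 8 libraries was most like the mean of the members were Sephs2 (r = 0.974), Pglyrp2 (0.973), Pdk2 (0.960), Vps36 (0.954) and Agxt (0.946), out of 9388 genes. These r are descriptions over libraries that share 4 groups. Agxt, alanine-glyoxylate aminotransferase, had the widest range of these, with log2 differences of −2.36 for the diet in WT (edgeR adjusted p = 0.00480), −0.19 for the diet in Elf4-/- (edgeR adjusted p = 0.811) and 1.91 for genotype under EtOH (edgeR adjusted p = 0.137).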
